A study of Mus musculus with 10 samples.

Results

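The brains of newborn mice that carried a paternal X chromosome and no maternal X (XpO) were compared with those of XX females of the same cross, over all probe sets of the array that are not controls. The comparison used 4 of the 10 arrays of the study, chosen by their titles. The XpO group (39 chromosomes) had the arrays XpO 15 and XpO 18, and the XX_InX group (40 chromosomes) had the arrays XX_InX 1 and XX_InX 19. All of them held whole brain RNA from postnatal day 0, hybridised to the Affymetrix MG-U74Av2 array. The labels give their cross, called the In(X) cross here, as In(X)/C3H x C57BL/6J. The other 6 arrays, 3 of XmO mice with a maternal X and 3 of XX_Paf females, served to estimate the spread and for the comparison of the crosses at the end; their cross is labelled C57BL/6J x C3H/Paf. The labels do not say which parent is written first, nor whether an array held RNA of a single animal or of a pool, so the p-values measure only the spread between these samples.

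In female mammals, 1 of the 2 X chromosomes is silenced in each cell by Xist, a long non-coding RNA made from the inactive X that coats it. An XO animal has no inactive X, and genes that escape silencing have an active copy fewer than in XX animals. In(X) is an inverted X chromosome, and females that carry it are known to give XO offspring that lack the maternal X. The XX_InX females therefore also have the X of the In(X)/C3H side that the XpO mice lack, and the loss of an X chromosome and the loss of that strain's X cannot be told apart here.

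The sequences before the start sites of Xist and of Eif2s3x are shown because Xist was the gene that passed the test and Eif2s3x the X-linked gene next to it by p. Both are from RefSeq, build GRCm38.p6, 250 bases each on the minus strand, with every CG in capitals. The Xist sequence lies at chrX:103483234-103483483 and the Eif2s3x sequence at chrX:94212652-94212901.
Xist: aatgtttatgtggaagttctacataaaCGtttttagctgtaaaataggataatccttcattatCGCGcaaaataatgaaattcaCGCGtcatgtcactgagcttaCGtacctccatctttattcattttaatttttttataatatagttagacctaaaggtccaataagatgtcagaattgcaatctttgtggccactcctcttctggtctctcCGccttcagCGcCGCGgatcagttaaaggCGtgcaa
Eif2s3x: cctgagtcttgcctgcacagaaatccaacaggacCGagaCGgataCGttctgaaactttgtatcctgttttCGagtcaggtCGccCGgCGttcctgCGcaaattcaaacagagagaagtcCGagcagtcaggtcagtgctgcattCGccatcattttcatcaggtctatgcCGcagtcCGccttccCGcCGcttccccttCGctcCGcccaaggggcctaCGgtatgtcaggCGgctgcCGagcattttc
The Xist sequence held 11 CG, a count reached by 35.6% of the 32851 promoters in the table, and 38.0% of its bases were G or C. The Eif2s3x sequence held 19 CG, reached by 19.7% of promoters, with 56.4% G or C. The median over all promoters was 6 CG. A count on 1 strand covers both, since CG reads the same on either, and it says nothing of methylation, which was not measured.

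The values are intensities on a linear scale, scaled by array, and a value of XpO 15 is given before XpO 18 and of XX_InX 1 before XX_InX 19 throughout. The brightest of 9 Y-linked probe sets, which should find no transcript in these mice, read 33.6 and 83.4 in XpO and 102.9 and 97.5 in XX_InX, and this level served as the background of each array. Folds against a group at or below its background on both arrays are given as "at least", with that group set to the background. For Xist, which among the XpO arrays lay above the background on XpO 15 alone, the higher of its own value and the background was taken on each XpO array. The arrays of a group were no more alike than arrays of different groups. XpO 15 and XpO 18 differed over 2-fold in 8.35% of the 8695 tested probe sets, XX_InX 1 and XX_InX 19 in 5.01%, and the pairs across groups in 4.61% to 6.69%. The first principal component of the 4 arrays held 44.1% of the variance and placed XpO 15 at -31.3 and XpO 18 at 21.7, with XX_InX 1 (11.4) and XX_InX 19 (-1.76) between them. The labelled tissue matched its markers: all 30 measured pan-neuronal genes lay above the background on the 4 arrays, and Tubb3, a neuronal tubulin, read 27395.4 and 26885.1 in XpO and 28697.1 and 24545.0 in XX_InX.

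Loss of the maternal X came with a fall of Xist RNA to near the background, and no other probe set passed the test. Xist read 40.6 and 49.9 in XpO and 1673.4 and 2670.7 in XX_InX. Both XpO arrays lay near the background and far below both XX_InX arrays, as the labels of XO and XX females require. Xist fell by 5.55 on the log2 scale (SE 0.26; limma, Benjamini-Hochberg adjusted p = 2.85e-07), and it was at least 36.3-fold lower. Without XpO 15 this bound was 25.3-fold, and without XpO 18 it was 52.1-fold. This 1 call was 0.0115% of the tested probe sets. At an unadjusted p under 0.05, 159 probe sets (1.83%) had a higher and 135 (1.55%) a lower estimate in XpO. The arrays of the groups did not overlap for 984 probe sets that were higher in XpO (11.3%) and 1048 that were lower (12.1%). Counting each gene by its brightest probe set, 115 of 6458 genes (1.78%) were higher and 97 (1.5%) lower at an unadjusted p under 0.05, and 710 (11.0%) were higher and 779 (12.1%) lower with no overlap. An exact permutation test of 2 arrays against 2 cannot go below a two-sided p of 0.333, so values of single genes rest on the spread pooled across arrays and probe sets.

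**Figure D1:**
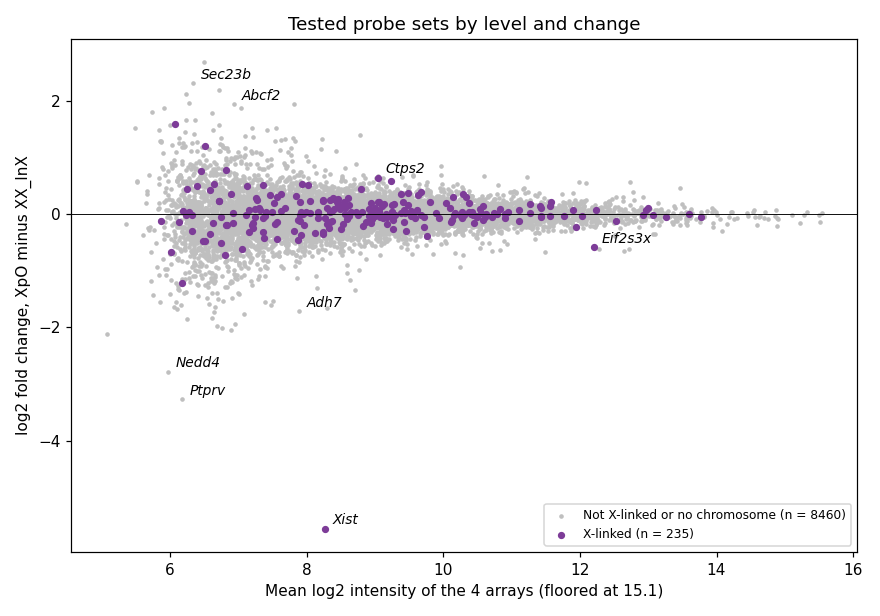
Log2 fold change of XpO against XX_InX (vertical axis) for the 8695 tested probe sets by their mean log2 intensity on the 4 arrays (horizontal axis), with the 235 X-linked probe sets as purple points and the others in grey. Xist lies alone at -5.55, while the X-linked points otherwise lie within the grey cloud, whose spread widens at low intensity.

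Eif2s3x was the X-linked gene with the smallest p after Xist. It encodes a subunit of the translation initiation factor eIF2 and is known to escape X inactivation in the mouse. Its intensity was 3931.8 and 3755.0 in XpO and 6101.5 and 5463.4 in XX_InX. Each XpO array lay below each XX_InX array, and the log2 difference was -0.59 (SE 0.11), but it did not pass over all probe sets (limma, adjusted p = 0.342). Of the other escape genes tested, Bgn also had groups apart by its brightest probe set, and the rest did not. Kdm6a, a histone H3 lysine 27 demethylase, read 380.5 and 369.9 in XpO and 425.0 and 368.4 in XX_InX (log2 difference -0.08, SE 0.18). Ddx3x, an RNA helicase, read 1782.7 and 1523.5 in XpO and 1655.6 and 1743.0 in XX_InX with its brightest probe set (-0.04, SE 0.17). The groups overlapped for both genes. A dimmer Ddx3x probe set read 461.2 and 585.7 in XpO and 329.6 and 443.4 in XX_InX, with an estimate of the opposite sign (0.44, SE 0.24). Usp9x, a deubiquitinase, differed by 0.03 and 0.09 with its pair of probe sets, and Tmsb4x, an actin-binding peptide, by 0.00. Bgn, the matrix proteoglycan biglycan, read 1023.1 and 1104.5 in XpO and 1152.7 and 1172.8 in XX_InX, with no overlap but a log2 difference of only -0.13 (SE 0.17). Utp14a, which acts in ribosome assembly, read 134.7 and 44.1 in XpO and 124.4 and 92.4 in XX_InX, and XpO 15 lay above both XX_InX arrays while XpO 18 lay below its background. Over the 7 tested escape genes of 8 measured (Mid1 was the other), the median log2 difference was -0.077 (-0.005 without XpO 18 and -0.151 without XpO 15), against -0.010 over all genes; 1 gene had an unadjusted p under 0.05 and 2 had groups apart, all of them lower.

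The pseudoautosomal gene Erdr1 varied more within each group than between them. Its bright probe set read 7394.7 and 12557.7 in XpO and 19214.2 and 5214.4 in XX_InX, so that both extremes were XX_InX arrays. Mid1, a ubiquitin ligase gene at the pseudoautosomal boundary of mice, and Xlr4a, of an X-linked family with imprinted members, were too dim to be tested. Xlr4a read 21.7 and 9.6 in XpO and 47.2 and 38.3 in XX_InX, each at or below the background of its array, so that no difference was detectable.

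The X-linked genes did not lie lower as a group. The median log2 difference of the 235 tested X-linked probe sets was 0.016, and that of 7573 autosomal ones was -0.009. The gap of 0.025 was smaller than the pooled SD of the same gap between arrays (0.043), and it rested on XpO 15: without XpO 18 it was 0.078, and without XpO 15 it was -0.002. Measured as the deviation from the mean of the 4 arrays, X-linked minus autosomal, XpO 15 stood at 0.054, XpO 18 at -0.028, XX_InX 1 at -0.030 and XX_InX 19 at -0.005. In all, 125 X-linked probe sets had a higher and 110 a lower estimate in XpO. At an unadjusted p under 0.05, 1.28% of them were higher and 0.851% lower, against 1.91% and 1.61% of the autosomal ones. The groups did not overlap for 12.8% that were higher and 9.36% that were lower, close to the autosomal 11.4% and 12.0%.

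Beside Xist and Eif2s3x, the X-linked probe sets of smallest p had higher estimates in XpO, and none passed. Ctps2, a CTP synthase of nucleotide synthesis, read 654.0 and 668.8 in XpO and 422.6 and 422.7 in XX_InX (log2 difference 0.65, SE 0.18). Its arrays agreed closely within each group. Kcnd1, a voltage-gated potassium channel, read 110.2 and 124.7 in XpO and 44.1 and 34.1 in XX_InX, where it lay below the background, a difference of at least 1.17-fold. Cd99l2, a cell surface adhesion protein, read 747.5 and 767.9 in XpO and 549.3 and 634.1 in XX_InX (0.36, SE 0.17). Huwe1, a large ubiquitin ligase, had 2 probe sets that disagreed: the dimmer differed by 1.20 with XX_InX 1 at 35.0, and the brighter by 0.02. Ogt, the enzyme that adds N-acetylglucosamine to proteins, read 1196.8 and 741.5 in XpO and 722.3 and 707.6 in XX_InX, and its difference came from XpO 15. Slc25a14, a mitochondrial carrier, read 139.7 and 156.1 in XpO and 50.1 and 148.7 in XX_InX, with overlapping groups. Among 29 tested X-linked genes of intellectual disability and neural function, 5 were higher and 2 lower with no overlap, none had an unadjusted p under 0.05, and the median was 0.009 (-0.049 to 0.095 with an array left out).

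Among autosomal genes, Ptprv had the smallest p, followed by Nedd4 and Adh7, all lower in XpO and none past the threshold. Ptprv, a receptor-type tyrosine phosphatase, read 17.9 and 30.3 in XpO and 207.5 and 244.0 in XX_InX. The XpO arrays lay below background, and Ptprv was at least 4.25-fold lower (2.70-fold without XpO 15 and 6.70-fold without XpO 18; limma, adjusted p = 0.285). The other Ptprv probe sets were too dim to be tested. Nedd4, a ubiquitin ligase, read 20.5 and 28.0 in XpO and 246.9 and 110.1 in XX_InX with a probe set that may match a sequence family (at least 3.11-fold lower, from 1.98-fold without XpO 15 to 4.91-fold without XpO 18; adjusted p = 0.311 by limma). Its brighter probe set did not follow, at 2655.8 and 2028.6 in XpO and 1968.8 and 2162.8 in XX_InX. Adh7, an alcohol dehydrogenase that can oxidise retinol, read 159.6 and 106.3 in XpO and 430.2 and 424.9 in XX_InX. It lay above background on every array, with no overlap, and its log2 difference was -1.71 (SE 0.33; limma, adjusted p = 0.382).

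The remaining genes of the 15 with the smallest p that were lower in XpO had groups apart by definition of the naming rule, so their separation is a description. Ptgds, the prostaglandin D2 synthase made largely by the meninges and choroid plexus, read 5164.4 and 5763.3 in XpO and 8436.6 and 8170.0 in XX_InX (log2 difference -0.61, SE 0.17). Its other probe sets, which may match related sequences, differed by -0.39 and -0.65, with groups apart in the same direction. Slc16a8, a lactate transporter of pigment epithelium and choroid plexus, read 38.9 and 84.9 in XpO and 130.8 and 244.3 in XX_InX. Both had XpO below XX_InX on each array. Ttr, the transthyretin of the choroid plexus, read 1617.0 and 908.2 in XpO and 1723.6 and 1929.1 in XX_InX, with groups apart and a log2 difference of -0.59 (SE 0.31). Folr1, the folate receptor of the choroid plexus, read 295.9 and 70.4 in XpO and 256.8 and 286.2 in XX_InX, low in XpO 18 alone. The summed intensity of the 9 measured choroid plexus and ependyma genes was 2742 and 2194 in XpO and 3132 and 3162 in XX_InX. Kl and Cldn2 lay at or below background on the 4 arrays, and 3 of the 9 genes lay above it on all. Ttr was a large part of this sum on each array, so the sum does not stand for the other members. Of 4 tested genes of the list, 0 were higher and 1 lower with no overlap, and that gene was Ttr. By estimate, 1 was higher and 3 lower. Whether a different amount of choroid plexus contributed to Ptgds or Slc16a8 was not tested. In whole tissue, fewer cells of a type and less RNA per cell cannot be told apart.

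Rer1, which returns proteins to the endoplasmic reticulum, read 669.2 and 513.5 in XpO and 954.6 and 945.5 in XX_InX (log2 difference -0.70, SE 0.19). Map1s, a microtubule-associated protein, read 480.9 and 677.7 in XpO and 885.4 and 866.8 in XX_InX (-0.62, SE 0.18). Taok3, a protein kinase, read 206.9 and 213.2 in XpO and 335.9 and 363.1 in XX_InX (-0.73, SE 0.21). In these genes the XX_InX arrays were nearly equal, but the second probe set of Taok3 differed by 0.01. Sox11, a transcription factor of immature neurons, read 1259.8 and 750.6 in XpO and 1465.2 and 1753.7 in XX_InX with a sequence-family probe set, and its brighter probe set differed by -0.12. Scin, an actin-severing protein, read 106.1 and 68.3 in XpO and 209.4 and 169.5 in XX_InX, and lay below background on XpO 18. The others were also dim in XpO. T2 read 65.4 and 60.9 in XpO and 303.2 and 191.0 in XX_InX. Zbtb37, a zinc finger protein, read 32.4 and 92.1 in XpO and 238.1 and 114.1 in XX_InX. Cyba, a subunit of the phagocyte NADPH oxidase, was at least 2.33-fold lower with a sequence-family probe set (1.48-fold without XpO 15 and 3.67-fold without XpO 18), while its brighter probe set differed by -0.19.

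Among the 15 genes of smallest p that were higher in XpO, those above background on all 4 arrays had folds of 1.63 to 2.50. Rbm6 and Rcc2, also described here, had XX_InX 19 below background. Ppfia4, a liprin of the presynaptic active zone, read 542.6 and 413.7 in XpO and 139.4 and 257.7 in XX_InX (log2 difference 1.32, SE 0.30; limma, adjusted p = 0.891). Trnt1, which adds the CCA end to transfer RNAs, read 1409.6 and 1286.1 in XpO and 708.5 and 781.7 in XX_InX (0.86, SE 0.22). Kif1a, the kinesin that carries synaptic vesicle precursors along axons, read 1286.8 and 1261.2 in XpO and 778.9 and 788.9 in XX_InX (0.70, SE 0.18). For Kif1a the arrays of a group differed far less than the groups. Vhl, the substrate receptor of the ubiquitin ligase that degrades hypoxia-inducible factors, read 295.5 and 262.4 in XpO and 140.2 and 164.0 in XX_InX (0.88, SE 0.22). Gsdme, a pore-forming gasdermin, read 457.5 and 376.7 in XpO and 231.6 and 279.4 in XX_InX. Celsr2, a cadherin of planar cell polarity and axon tracts, read 302.5 and 321.0 in XpO and 138.9 and 112.8 in XX_InX. The second probe sets of Gsdme and Celsr2 differed by 0.03 and 0.01, so neither gene's difference was seen with both. H2-Bl, a histocompatibility gene with near-identical relatives, read 325.3 and 403.5 in XpO and 149.2 and 213.6 in XX_InX, and its probe set may match several of them. Rbm6, an RNA-binding protein, read 237.1 and 213.5 in XpO and 131.9 and 83.0 in XX_InX. Rcc2, a chromosome passenger protein, read 253.6 and 421.6 in XpO and 176.0 and 95.8 in XX_InX, and its brighter probe set differed by 0.18.

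In the rest of these genes the XX_InX arrays lay at or below background, and the bounds were small. Abcf2, an ATP-binding cassette protein without a membrane domain, read 398.0 and 144.2 in XpO and 54.9 and 71.1 in XX_InX, at least 2.39-fold higher in XpO (1.44-fold without XpO 15 and 3.97-fold without XpO 18; adjusted p = 0.891 by limma). Sec23b, a coat protein of vesicles that leave the endoplasmic reticulum, was at least 1.80-fold higher with a sequence-family probe set, and its brighter probe set differed by -0.14. In the XmO and XX_Paf arrays Abcf2 ranged from 195.9 to 478.0, so that the XX_InX arrays lay below all 8 others. Alx4, a homeobox factor of craniofacial mesenchyme, read 157.1 and 221.1 in XpO and 93.6 and 81.8 in XX_InX (at least 1.86-fold). Aldh3a1, an aldehyde dehydrogenase, read 146.1 and 225.4 in XpO and 86.1 and 43.2 in XX_InX (at least 1.81-fold). Sfrp4, a secreted Wnt antagonist, read 131.5 and 179.7 in XpO and 61.4 and 25 in XX_InX (at least 1.53-fold). All of these are within a few-fold of background. Col5a1, a fibrillar collagen chain, was at least 1.34-fold higher, while its brighter probe set differed by -0.11.

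**Figure D2:**
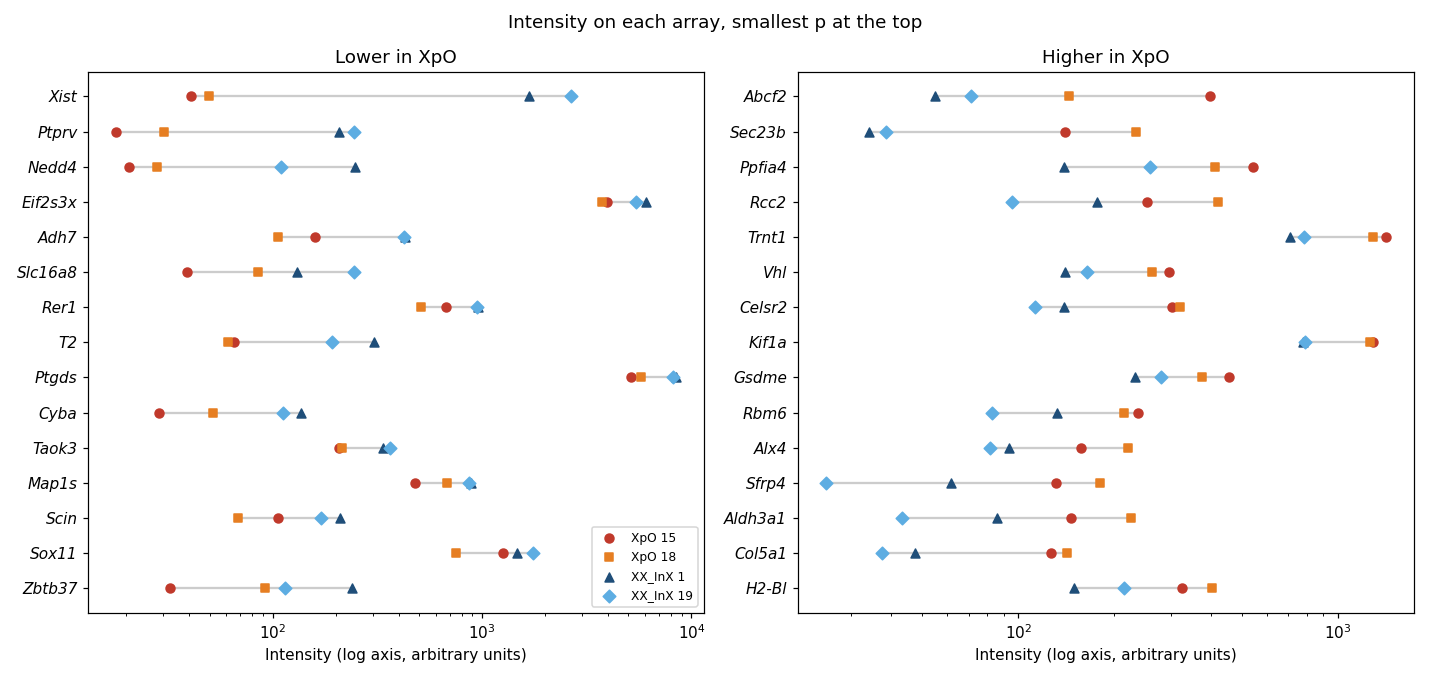
Intensity (log axis) on each of the 4 arrays for the 15 genes of smallest p that were lower (left) and higher (right) in XpO, with red and orange points for XpO 15 and XpO 18 and dark and light blue points for XX_InX 1 and XX_InX 19. The groups do not overlap in any row, since the rule asked for that, and of the genes shown Xist has the widest gap between them.

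By function, no list other than that of Xist itself held a call, so lists are described by their counts and medians, beside 11.0% of all genes higher and 12.1% lower with no overlap and a median log2 difference of -0.010. The lists share genes, and 46 had 3 or more tested members. For 17 of these the sign of the median held whichever of the 4 arrays was left out.

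Neuronal and transport lists had mostly higher estimates in XpO. Of 31 tested cortical and forebrain neuron transcription factors, 7 (22.6%) were higher and 0 lower with no overlap, 1 had an unadjusted p under 0.05, and the median was 0.109 (0.081 to 0.109 with an array left out). Their median deviations were 0.063 and 0.024 in the XpO arrays and -0.064 and -0.076 in the XX_InX arrays, so both XpO arrays lay above both XX_InX arrays. Neurod6, a basic helix-loop-helix factor of cortical pyramidal neurons, read 998.2 and 912.1 in XpO and 598.9 and 578.8 in XX_InX (0.70, SE 0.20). Dlx1, a factor of forebrain interneurons, read 1148.3 and 1363.0 in XpO and 1100.4 and 900.6 in XX_InX (0.33, SE 0.22). Id2, an inhibitor of helix-loop-helix factors, read 4723.3 and 4796.9 in XpO and 3512.2 and 4525.2 in XX_InX. These genes had groups apart, and Neurod6 and Id2 also stand in the list of proneural, Hes and Id factors, where 4 of 20 were higher and 3 lower. Among the lower was Nhlh1, a helix-loop-helix factor of newborn neurons, at 123.0 and 50.6 in XpO and 176.7 and 186.5 in XX_InX. Nhlh1 lay below background on XpO 18.

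Of 37 kinesin, dynein and dynactin genes, 9 (24.3%) were higher and 0 lower with no overlap. The median was 0.098 (0.037 to 0.220 with an array left out), and the deviation of XpO 15 (0.143) exceeded that of XpO 18 (-0.010). Kif1a, described above, was the member with an unadjusted p under 0.05, and Dctn2, the dynamitin subunit of dynactin, read 1522.1 and 1155.9 in XpO and 1110.1 and 968.4 in XX_InX (0.36, SE 0.18). Of 39 actin and tubulin genes and their partners, 5 were higher and 3 lower with no overlap, and the 3 with an unadjusted p under 0.05 were all higher. Myh10, a non-muscle myosin heavy chain, read 261.3 and 241.0 in XpO and 130.7 and 123.7 in XX_InX (0.98, SE 0.28). Tubg1, the gamma-tubulin that nucleates microtubules, read 934.3 and 761.5 in XpO and 507.4 and 569.1 in XX_InX (0.65, SE 0.21). Cap1, which regulates actin turnover, read 358.1 and 363.0 in XpO and 284.3 and 124.3 in XX_InX, low mainly in XX_InX 19. The list median was 0.025 (0.002 to 0.057 with an array left out), so these members stood apart from most of their list. Pan-neuronal genes had a median of 0.059, which turned to -0.058 without XpO 15 and -0.006 without XX_InX 1. Their summed intensity was 165800 and 155800 in XpO and 162000 and 155600 in XX_InX.

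Synaptic and signalling lists differed among themselves. Of 42 synaptic vesicle and SNARE genes, 4 were higher and 2 lower with no overlap and the median was 0.018 (-0.003 to 0.048 with an array left out). Of 11 ionotropic glutamate receptor subunits, 2 were higher and 0 lower, and the median was 0.112 (0.077 to 0.196 with an array left out). Gria4, an AMPA receptor subunit, had the smallest p of these, at 202.2 and 120.5 in XpO and 127.5 and 85.5 in XX_InX, with overlapping groups. Of 15 GABA and glycine genes, 1 was higher and 2 lower, among them Gabrb2, a GABA-A receptor subunit, at 256.0 and 315.6 in XpO and 463.9 and 390.4 in XX_InX (-0.58, SE 0.20). Of 39 voltage-gated ion channels, 4 were higher and 2 lower, and of 44 axon guidance genes 7 were higher and 3 lower (median 0.077, 0.004 to 0.099 with an array left out). Plxna2, a semaphorin receptor, read 766.0 and 695.2 in XpO and 630.9 and 477.2 in XX_InX. Of 21 monoamine genes, 2 were higher and 3 lower; Ddc, the decarboxylase that makes dopamine and serotonin, read 203.8 and 238.4 in XpO and 399.5 and 252.1 in XX_InX. Of 25 neuropeptide genes, 1 was higher and 5 lower, and the median of -0.044 became 0.011 without XpO 15. Npy, neuropeptide Y, read 1766.2 and 1856.5 in XpO and 1609.8 and 1303.7 in XX_InX (0.32, SE 0.14). Trh, thyrotropin-releasing hormone, read 100.5 and 373.5 in XpO and 392.8 and 430.0 in XX_InX, so its lower mean came from XpO 15.

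Among developmental signals, Wnt genes had estimates in both directions, and none passed. Of 32 tested, 6 (18.8%) were higher and 6 (18.8%) lower with no overlap, and 2 in each direction had an unadjusted p under 0.05. Wnt5b, a Wnt ligand, read 78.1 and 127.5 in XpO and 20.7 and 39.2 in XX_InX, and since XX_InX lay below its background and XpO no higher than that background on average, no fold is given. Fzd4, a Wnt and norrin receptor, read 435.1 and 490.7 in XpO and 615.4 and 699.4 in XX_InX (-0.51, SE 0.18), and Wnt6 read 63.3 and 31.6 in XpO and 123.1 and 93.6 in XX_InX. Wnt6 lay below background on XpO 18 and XX_InX 19. Of 46 Notch, Hedgehog, BMP and FGF genes, 34 had lower estimates, 7 were lower and 4 higher with no overlap, and the median was -0.115 (-0.113 to -0.061 with an array left out). None of them had an unadjusted p under 0.05. Ptch1, the Hedgehog receptor, went the other way with a higher value, 532.5 and 513.3 in XpO against 357.0 and 421.2 in XX_InX, although its second probe set differed by -0.04. Of 34 homeobox, Pax and Pou factors, 2 were higher and 7 lower; the median of -0.145 became 0.113 without XpO 15. Hoxc5 read 89.7 and 148.7 in XpO and 37.3 and 26.8 in XX_InX (at least 1.15-fold higher, but with no fold above 1 without XpO 18), and Lhx5, a LIM homeobox factor, read 134.7 and 44.2 in XpO and 191.6 and 166.5 in XX_InX. Lhx5 lay below background on XpO 18. Of 12 Sox factors, 0 were higher and 3 lower, with a median of -0.125 (-0.031 without XpO 15 and -0.236 without XpO 18). Of 15 retinoid genes, 1 was higher and 3 lower, among them Adh7 and Ttr, described above. Of 16 receptor-type tyrosine phosphatases, 2 were higher and 2 lower, and apart from Ptprv none had an unadjusted p under 0.05.

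Lists of growth and of the handling of RNA and protein had positive medians, some of them through XpO 15. Of 65 cell cycle and DNA replication genes, 13 were higher and 8 lower with no overlap, and the median was 0.044 (0.024 to 0.125 with an array left out). Mcm7, a subunit of the replicative helicase, read 661.4 and 560.8 in XpO and 468.2 and 472.5 in XX_InX (0.37, SE 0.16), and Cdc45, its partner, read 215.6 and 180.8 in XpO and 69.5 and 162.1 in XX_InX. Cdc45 lay below background on XX_InX 1, and its XX_InX 19 value was near that of XpO 18. Of 37 nuclear import and export factors, 9 (24.3%) were higher and 3 lower, with a median of 0.057 (0.044 to 0.096 with an array left out). Nup54, a protein of the nuclear pore channel, read 405.3 and 322.7 in XpO and 224.5 and 210.2 in XX_InX (0.74, SE 0.23). Xpo1, the main export receptor of proteins, read 1056.6 and 983.1 in XpO and 721.6 and 801.1 in XX_InX (0.42, SE 0.14). Ipo11, an import receptor, was higher as well (0.45, SE 0.19), while Nup88, of the cytoplasmic face of the pore, read 887.4 and 836.4 in XpO and 1030.7 and 1163.7 in XX_InX. The list thus held members apart in both directions. Of 60 translation factors and tRNA synthetases, 11 were higher and 9 lower with no overlap, and the median of 0.054 became -0.006 without XpO 15. Beside Eif2s3x and Trnt1, Wars, a tryptophanyl-tRNA synthetase, read 1251.6 and 1091.0 in XpO and 940.7 and 764.1 in XX_InX, and Eif2b2, a subunit of the exchange factor of eIF2, read 256.0 and 496.1 in XpO and 563.3 and 672.3 in XX_InX.

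Of 78 splicing and RNA-binding genes, 12 were higher and 7 lower with no overlap. Srsf2, a splicing factor, read 8650.1 and 8516.6 in XpO and 7570.8 and 6404.9 in XX_InX (0.30, SE 0.12), and its other probe set also had groups apart, with a difference of 0.51. Of 65 vesicle coat and secretory genes, 12 were higher and 4 lower; Sec63, of the translocon of the endoplasmic reticulum, read 161.6 and 134.3 in XpO and 27.9 and 77.8 in XX_InX (at least 1.47-fold higher). Of 48 heat shock proteins and chaperones, 9 were higher and 6 lower. Pdia6, a disulfide isomerase, read 1386.2 and 1142.0 in XpO and 955.7 and 946.3 in XX_InX (0.40, SE 0.15), and Pdia3, another, read 1186.4 and 1196.0 in XpO and 695.8 and 1094.1 in XX_InX. Of 42 ubiquitin genes 5 (11.9%) were higher and 4 (9.52%) lower, and of 70 chromatin regulators 9 (12.9%) were higher and 4 (5.71%) lower. The shares that were higher lay near the 11.0% of all genes. The medians of the splicing, chaperone, ubiquitin and chromatin lists turned negative without XpO 15, at -0.043, -0.022, -0.011 and -0.011. Those of the splicing and ubiquitin lists also turned negative without XX_InX 1, at -0.028 and -0.003.

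Energy metabolism and the basic machinery showed little separation. Of 64 respiratory chain and ATP synthase genes, 5 were higher and 8 lower with no overlap and the median was -0.023 (-0.095 to 0.063 with an array left out). Ndufb7, a complex I subunit, read 3333.6 and 3060.2 in XpO and 3774.9 and 4039.2 in XX_InX (-0.29, SE 0.12). Of 38 glycolysis and citric acid cycle genes, 5 were higher and 1 lower; Pfkp, the platelet phosphofructokinase, read 1416.7 and 1141.2 in XpO and 1034.7 and 898.0 in XX_InX. Of 36 proteasome genes 2 were higher and 1 lower, and of 25 cytosolic ribosomal proteins 1 was higher and 1 lower. For the proteasome the XpO arrays lay on opposite sides of both XX_InX arrays, at median deviations of 0.127 and -0.175. Of 29 cholesterol and lipid genes, 1 was higher and 2 lower. Of 24 immediate early genes, 3 were higher and 4 lower; Gadd45b, a stress-induced regulator, read 136.1 and 203.6 in XpO and 84.6 and 60.2 in XX_InX (at least 1.66-fold higher), and Nr4a1, an orphan nuclear receptor, read 143.4 and 244.8 in XpO and 99.5 and 104.3 in XX_InX. Nr4a1 lay below background on XX_InX 1. Of 15 circadian genes 1 was higher and 0 lower.

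Imprinted autosomal genes, whose expression depends on the parent of origin, were measured as well. Of 15 tested paternally expressed genes, 0 were higher and 4 (26.7%) lower with no overlap, none had an unadjusted p under 0.05, and the median was -0.113 (-0.207 to -0.019 with an array left out). Dlk1, a growth regulator of the Notch ligand family, read 579.2 and 613.6 in XpO and 682.9 and 762.5 in XX_InX (-0.28, SE 0.17). Of 21 maternally expressed genes, 2 were higher and 4 lower and the median was -0.035 (-0.194 to -0.006 with an array left out). Nap1l4, a histone chaperone, read 518.6 and 689.8 in XpO and 918.2 and 733.8 in XX_InX (-0.46, SE 0.18).

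In the lists of the coverings, vessels and immune cells of the brain, more genes were lower in XpO than higher, and XpO 15 had the lowest sum of each list. Of 47 tested meningeal, collagen and matrix genes, 13 (27.7%) were lower and 4 (8.51%) higher with no overlap, and the median of -0.134 became -0.021 without XpO 15. Col4a2, a basement membrane collagen, read 1174.1 and 1539.5 in XpO and 1657.9 and 1762.6 in XX_InX (-0.35, SE 0.16). Col1a1, the main fibrillar collagen, read 891.0 and 1191.4 in XpO and 1282.2 and 1298.5 in XX_InX, and Lama2, a laminin chain, read 119.7 and 52.7 in XpO and 199.7 and 160.5 in XX_InX. Lama2 lay below background on XpO 18. The second Col1a1 probe set overlapped between the groups (533.8 and 769.3 in XpO, 756.1 and 889.3 in XX_InX). So did the brightest probe sets of Col1a2 and Col3a1, while a dimmer probe set of each was lower with groups apart. The groups also overlapped for Dcn, Lum and Ogn. Hspg2, the basement membrane proteoglycan perlecan, went the other way, at 250.7 and 399.1 in XpO and 140.0 and 165.5 in XX_InX (1.06, SE 0.32). Vcan, Timp1 and Serpinh1 were the other genes higher with groups apart (0.27, 0.58 and 0.09). The summed intensity of the 49 measured genes of this list was 29230 in XpO 15, 33310 in XpO 18, 33740 in XX_InX 1 and 33260 in XX_InX 19, so that XpO 18 lay between the XX_InX arrays. Of 20 endothelial and pericyte genes, 6 were lower and 2 higher (median -0.159, -0.303 to -0.029 with an array left out), and their sum over 22 measured genes was 5218 and 6009 in XpO and 5953 and 6363 in XX_InX. Vwf, von Willebrand factor of endothelium, read 210.0 and 173.5 in XpO and 231.2 and 315.5 in XX_InX. The endothelial marker Cdh5 went the other way with groups apart, at 235.2 and 249.2 in XpO and 213.2 and 203.6 in XX_InX. The groups overlapped for the markers Cldn5, Kdr and Pecam1 (log2 differences 0.06, -0.15 and 0.44). Of 25 microglial and immune genes, 5 were lower and 1 higher, and the median of -0.192 became 0.004 without XpO 15. Tyrobp, a signalling adaptor of microglia, read 92.2 and 177.9 in XpO and 211.8 and 213.2 in XX_InX, while Csf1r, their growth factor receptor, read 300.9 and 263.1 in XpO and 280.3 and 290.3 in XX_InX with overlapping groups. The sum of this list, of 38 measured genes of which 9 lay at or below background on the 4 arrays, among them Aif1, was 7011 and 9074 in XpO and 8991 and 8701 in XX_InX. The part of these cell types in the values of other genes was not tested.

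The summed erythroid, pituitary, muscle and oligodendrocyte markers overlapped between the groups. Summed erythroid intensity was 15280 and 15500 in XpO and 15810 and 13160 in XX_InX, and of 20 tested genes 3 were higher and 3 lower. Hba-a1, an alpha-globin, read 6112.9 and 4541.0 in XpO and 4474.8 and 2872.9 in XX_InX, whereas Hbb-b2, a beta-globin, read 1109.3 and 1058.3 in XpO and 1392.9 and 930.8 in XX_InX. The sum of 11 pituitary genes was 1806 and 2565 in XpO and 2627 and 2314 in XX_InX. Of 9 tested, 0 were higher and 3 (33.3%) lower with no overlap, and the median of -0.275 became 0.293 without XpO 15. By estimate, 4 of the 9 were higher. Prl, prolactin, read 59.6 and 72.3 in XpO and 112.6 and 187.5 in XX_InX, and lay below background on XpO 18. Gh, growth hormone, overlapped between the groups, at 573.2 and 567.9 in XpO and 620.4 and 483.0 in XX_InX. Pomc overlapped as well, at 47.4 and 312.6 in XpO and 211.3 and 140.4 in XX_InX. The muscle sum was 5905 and 6958 in XpO and 6054 and 5912 in XX_InX, with 9 of 30 measured genes, Myh3 among them, at or below background on the 4 arrays. Myog, a factor of muscle differentiation, read 248.9 and 404.7 in XpO and 107.4 and 114.2 in XX_InX (1.52, SE 0.43), and of 19 tested muscle genes 6 were higher and 2 lower. The lower were Mylpf, at 102.2 and 151.5 in XpO and 198.0 and 177.1 in XX_InX, and Ckm. Ckm read 122.5 and 178.7 in XpO and 220.6 and 260.0 in XX_InX. The median of 0.049 ranged from -0.100 to 0.101 with an array left out. Among 28 radial glia and astrocyte genes 1 was higher and 4 lower, with Gja1, connexin 43, at 3186.9 and 3607.6 in XpO and 3886.8 and 4190.3 in XX_InX. That was a sequence-family probe set, and the dimmer Gja1 probe set differed by 0.13 with overlapping groups. Among 10 oligodendrocyte and myelin genes 1 was higher and 2 lower, with Pmp22, a myelin protein, at 196.0 and 167.3 in XpO and 252.0 and 226.8 in XX_InX. Mag was the higher, at 116.0 and 182.2 in XpO and 112.9 and 105.3 in XX_InX. The groups overlapped for Mbp, whose probe sets differed by 0.15 and -0.08. The oligodendrocyte sum was 6161 and 7359 in XpO and 6304 and 7289 in XX_InX, and Mog, a late myelin protein, lay at or below background on the 4 arrays.

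**Figure D3:**
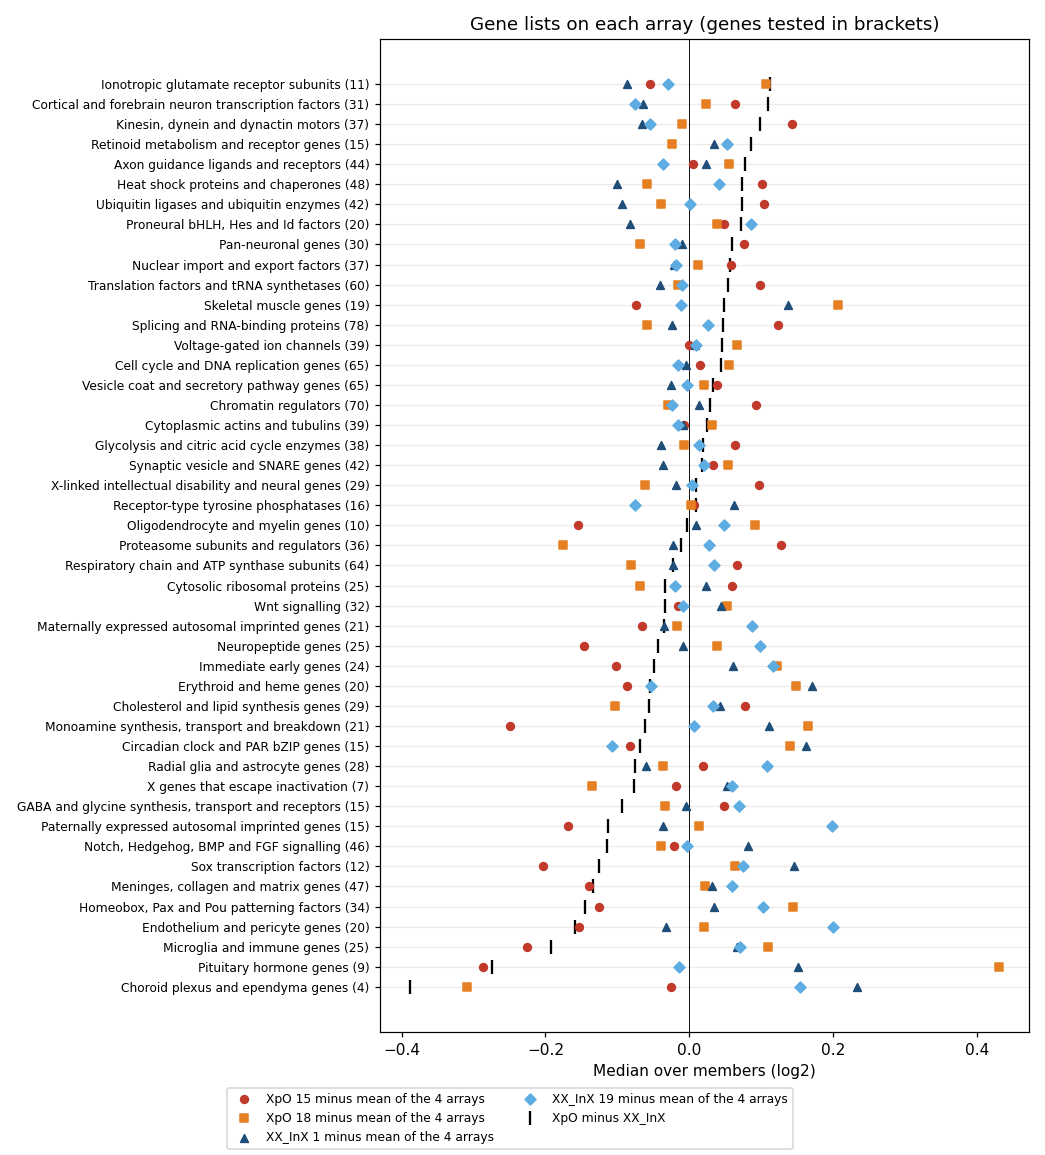
Median over the tested members of each of 46 gene lists on the log2 scale: points give each array's deviation from the mean of the 4 arrays and black bars the median difference of XpO minus XX_InX, with the number of genes in brackets. XpO 15 (red) and XpO 18 (orange) lie on opposite sides of the blue XX_InX points in many rows, such as the proteasome at 0.127 and -0.175, while for the cortical transcription factors both lie above both.

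The loss of the X in this cross was then set against its loss in the other cross, as the difference between the log2 difference of XpO against XX_InX and that of XmO against XX_Paf. The XpO mice lack the maternal X and the XmO mice the paternal X. The parent of the lost X, the cross and its labelled strains thus changed together and cannot be told apart. The difference was called for 2 probe sets, 0.023% of those tested. Hccs, the X-linked holocytochrome c synthase, read 414.6 and 440.9 in XpO and 315.5 and 391.2 in XX_InX. In the other cross it read 386.9, 384.9 and 350.5 in XmO and 1362.9, 1001.1 and 1236.7 in XX_Paf. The XX_Paf arrays thus stood above all 7 others, and the In(X) estimate (0.28, SE 0.19) exceeded that of the other cross (-1.67, SE 0.15) by 1.95 (SE 0.24; limma, adjusted p = 0.0219). The second, dimmer Hccs probe set differed by -0.20 between XpO and XX_InX. It read 53.8, 104.2 and 45.3 in XmO and 169.2, 160.1 and 157.6 in XX_Paf. It was thus also lower in XmO than in XX_Paf, with XmO 1 and XmO 7 below background. Ptprv was at 99.4, 158.9 and 195.4 in XmO and at 20.9, 42.1 and 53.6 in XX_Paf. It was thus low in XpO and XX_Paf and high in XX_InX and XmO, and the difference between the crosses passed (limma, adjusted p = 0.0313). Since all XpO and XX_Paf arrays lay below their background, its size is given as a bound: with those groups at their background, the fold differed between the crosses by at least 8.29-fold (5.26-fold without XpO 15 and 13.05-fold without XpO 18).

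Both calls depended on single arrays. For Hccs the adjusted p by limma was 0.14 without XX_InX 1, 0.0765 without XmO 2 and 0.107 without XmO 7. For Ptprv it was 0.0842 without XpO 15, 0.14 without XX_InX 1, 0.121 without XX_InX 19, 0.124 without XmO 2, 0.209 without XmO 7 and 0.0727 without XX_Paf 2. Without an intensity trend both were at 0.0827, and with no filter they were at 0.0503 for Hccs and 0.155 for Ptprv. The direction held for both genes under every alternative that was run, with differences from 1.80 to 2.11 for Hccs.

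The next probe sets by p did not pass (adjusted p of 0.391 or more by limma). Adh7 was at 298.9, 313.5 and 364.3 in XmO and 203.3, 169.0 and 378.2 in XX_Paf, and the XpO arrays lay below all others. Nedd4 was likewise lowest in XpO, at 59.1 to 163.8 in the other cross with the same probe set. Hspg2 read 133.5, 133.7 and 129.2 in XmO and 220.7, 411.0 and 245.5 in XX_Paf, so that it was higher in XpO and in XX_Paf. Gsdme read 423.1, 424.8 and 362.8 in XmO and 584.0, 590.3 and 530.8 in XX_Paf, and the XX_InX arrays lay below all others. Atp7b, a copper transporter, read 104.6 and 58.8 in XpO, 248.7 and 171.2 in XX_InX, 179.1, 113.5 and 130.2 in XmO and 39.0, 111.7 and 80.5 in XX_Paf. Rgs3, a regulator of G-protein signalling, differed by -0.31 (SE 0.15) in this cross and by 0.37 (SE 0.12) in the other. For Xist the difference did not pass either, with XmO at 21.3 to 30.7 and XX_Paf at 3300.1 to 4082.1.

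**Figure D4:**
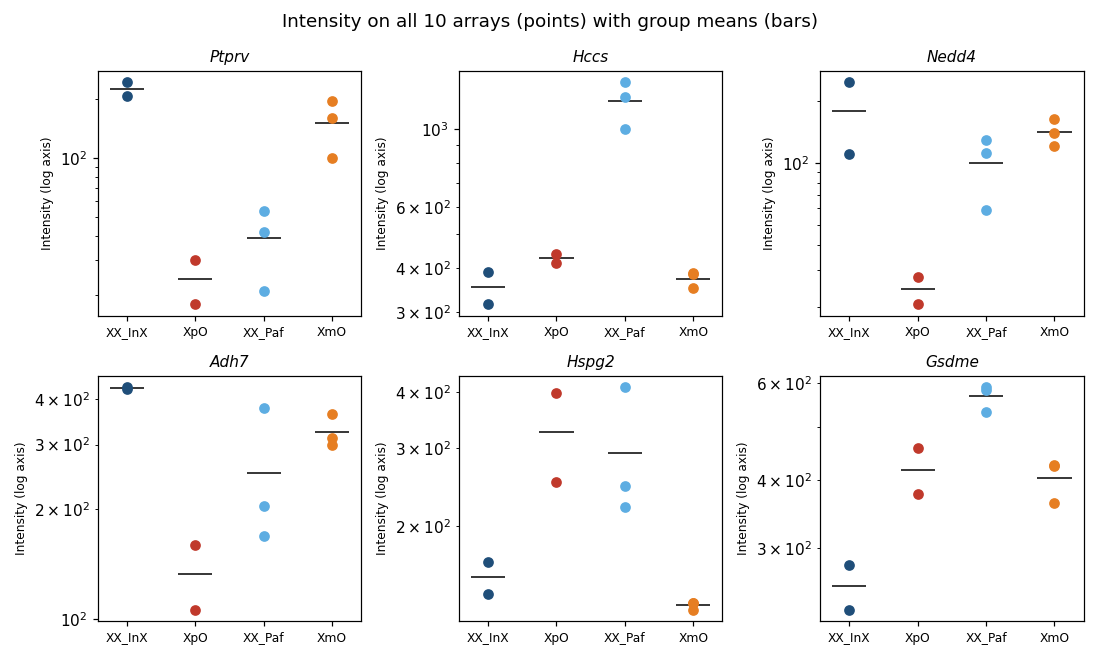
Intensity (log axes, a scale for each gene) of 6 genes on all 10 arrays, as points by group with the linear group mean as a bar. Hccs is high in XX_Paf alone (1001.1 to 1362.9), and Ptprv is low in XpO and XX_Paf and high in XX_InX and XmO.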

How the data were processed

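The authors deposited 1 linear intensity per probe set and array, without further description of their steps in the sources used here. The deposited intensity values share a trimmed mean of 500.3 on every array (2% trimmed at each end) and were not normalized again. Of 12488 probe sets, 66 controls were left out. Of the rest, 10833 had 1 gene symbol in the platform annotation, 396 several and 1193 none. Chromosomes came from a reference gene table (GRCm38.p6) for 10817, with 343 on the X and 9 on the Y.

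Values under the 10th percentile (15.1) were raised to it before log2 transformation. Tests covered 8695 probe sets, those with a mean log2 value at or above the 30th percentile. The 10 arrays entered a limma model (version 3.58.1, R 4.3.3) with 1 mean per group and 6 residual degrees of freedom, whose eBayes step used an intensity trend. Tests were two-sided, with Benjamini-Hochberg adjustment over all tested probe sets and calls under 0.05. Lists took each gene by its brightest tested probe set. A probe set whose name marks a sequence family, shared group or relaxed design may match related transcripts.

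Named were every call, the 15 probe sets of smallest p in each direction with groups apart and the higher group above background, all measured Xist, escape, pseudoautosomal and Xlr genes, the 8 X-linked probe sets of smallest p, up to 4 members of each other list by p, and for the difference between crosses its calls and 5 in each direction. Added as markers were Csf1r, Hbb-b2, Tubb3, Cdh5, Cldn5, Kdr, Pecam1, Mag, Mbp, Mylpf, Ckm, Gh, Pomc, Dcn, Lum, Ogn, Col1a2 and Col3a1. Mog, Aif1, Myh3, Kl and Cldn2 were added as markers at background. Vcan, Timp1 and Serpinh1 were added as the other matrix genes higher with groups apart. The members, lists and rule were chosen with earlier results of these data known. On simulated data of 8695 probe sets, 56% of 100 changed by a log2 value of 1 and 89% of 100 changed by 2 were recovered for XpO against XX_InX. The simulated noise was normal, with the fitted spread of each probe set. With so many true changes the Benjamini-Hochberg threshold is less strict than with 1 call, so these shares can overstate recovery. Whether these shares hold for the arrays themselves was not tested. There, fitted log2 differences of -3.27 (Ptprv), 1.94 (Abcf2) and -1.71 (Adh7) did not pass (limma, adjusted p = 0.285, 0.891 and 0.382). Xist, at -5.55, was the 1 call. The bound on the Ptprv difference between crosses was added after the results were seen. The number of arrays limits the precision. Scan dates were not used here, so batches were not examined.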

Additional observations from a re-analysis of the deposited data

Results flagged for a closer look

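The log2 difference of XO against XX differed between the crosses for 2 probe sets by the test of the difference itself. The parent of the lost X and the cross changed together, so they cannot be told apart. For Hccs the effect in the In(X) cross minus that in the Paf cross was 1.95 on the log2 scale, and for Ptprv the fitted value was -5.28. The Ptprv value is not a measured size, because its XpO and XX_Paf arrays all lay below background; with those groups at background the difference was -3.05 or beyond. The arrays behind them are given in the report, and both calls were lost when single arrays were left out.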

How the results depend on the processing

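Xist was called under every alternative run, and it was the 1 call under those other than dropping the filter or an array. Without the filter on dim probe sets there were 6 calls in place of 1; the 5 added, Melk, Ro60, Ccs, Bet1 and Cbx7, lay at or below background on 3 or 4 of the 4 arrays. Leaving out an array gave 2 to 4 calls. Those added were Pitpnb and St3gal4 without XpO 15, Nadk without XpO 18, Gfpt2 and Tarbp2 without XX_InX 1, and Snx17, Ggps1 and an unnamed probe set without XX_InX 19, where the lone array left is assumed to vary like the other groups. These were named after their values were seen; St3gal4, for example, read 545.3 in XpO 15 and 57.7 in XpO 18. For the difference between crosses, the 2 calls became 4 with no filter (Bet1, Cbx7, Ccs and Melk, with Hccs and Ptprv both lost), 1 with the filter at the 50th percentile and 0 without an intensity trend, and 0 to 4 with an array left out (0 without XmO 2, XmO 7 or XX_InX 1, and 4 without XpO 18). The gap of X-linked to autosomal medians ranged from -0.002 to 0.078 with an array left out. Of 104 other named probe sets, 0 were called under any alternative, 103 kept their direction under those other than leave-outs and 92 in all 4 leave-outs. The rest changed sign with an array left out, over these ranges: Slc25a14 -0.01 to 1.56, Folr1 -1.95 to 0.13, Mbd2 -2.46 to 0.13, Utp14a -1.28 to 0.33, the dimmer Bgn -0.39 to 0.11, the dimmer Erdr1 -0.13 to 0.34, the brighter Erdr1 -1.0 to 0.89 (0.07 with quantile normalization), the dimmer Usp9x -0.18 to 0.37, the brighter Usp9x -0.09 to 0.14, Kdm6a -0.18 to 0.03, Ddx3x -0.16 to 0.07 and Tmsb4x -0.15 to 0.16. The cause was not tested. Of 46 list medians, 44 kept their sign under every alternative other than leave-outs. At an unadjusted p under 0.05, 224 probe sets were higher and 276 lower without XpO 15, 288 and 470 without XpO 18, 201 and 93 without XX_InX 1, and 292 and 150 without XX_InX 19. No paired analysis was possible because the XpO and XX_InX arrays share no replicate number.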
